A study of Mus musculus with 8 samples.

Results

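The genes described here encode enzymes and readers of histone marks, the subunits of the SWI/SNF and related nucleosome remodellers, and the enzymes of DNA methylation. They were chosen by name from the count table: 115 of its 56691 rows carry a symbol of the KMT2, KMT5, SETD, KDM, KAT, HDAC, SIRT, CBX, BRD, SMARC, ARID, CHD, DNMT or TET families, of the Polycomb repressive complex PRC2, or of the acetyltransferases Ep300 and Crebbp. Kdm5c, Kdm5d and Kdm6a were left out as sex-linked, which leaves 112 members. RNA was sequenced from 8 organoid cultures, which are 3-dimensional cultures of epithelial cells, grown from the glandular hindstomach of mouse embryos at embryonic day 18.5. All had 5 days in growth medium and then 7 days in differentiation medium. The 4 YAP5SA cultures had the genotype Shh-Cre;YAP5SA and the 4 Ctrl cultures the genotype Shh-Cre. YAP is the transcriptional coactivator that Hippo kinases hold in check, YAP5SA is a mutant of it that escapes their phosphorylation, and Shh-Cre acts in cells that have expressed Sonic hedgehog, which in the embryonic stomach are epithelial. Cre is thus shared by both groups. The labels name no embryo, litter or culture day, so the p-values below measure the spread between these samples, which may be technical.

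Chromatin genes act in opposing sets. Methyltransferases and acetyltransferases write marks on histone tails, demethylases, histone deacetylases and sirtuins remove them, and proteins with chromo- or bromodomains read them. SWI/SNF (BAF), ISWI and CHD complexes use ATP to move or evict nucleosomes, PRC2 and the canonical PRC1 complexes keep developmental genes silent, and DNMT and TET enzymes add and oxidise methyl groups on cytosine. YAP and its DNA-binding partners, the TEAD factors, work at enhancers where they recruit such cofactors, among them p300.

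Total counts were between 17387372 and 21039926 in the YAP5SA libraries and between 18225648 and 25841256 in the Ctrl libraries. Yap1 itself, whose row cannot tell endogenous from transgenic transcripts, was at 139.8 ± 2.22 CPM in YAP5SA and 118 ± 11 CPM in Ctrl (SD, n = 4 each; CPM, or scaled count, means reads counted on a gene relative to a fixed library total after TMM scaling). Of markers for mesenchyme (8 genes), smooth muscle (4) and endothelium (4), none had enough counts for the test. Of 4 markers for neurons and glia 1 was tested and called lower in YAP5SA. The sum of these 4 was 0.320 to 0.728 CPM in YAP5SA and 0.950 to 1.67 CPM in Ctrl. Of 8 epithelial markers 4 rose and 3 fell, with a summed level of 9574 to 11257 CPM in YAP5SA and 15707 to 17195 CPM in Ctrl. Krt8 and Krt19, which both fell, made up most of that sum, so it says little of the 4 that rose. Of 6 blood and immune markers 5 had too few counts for the test. Of these, the macrophage gene Adgre1 was at 0. Itgam had 53 counts over the YAP5SA libraries and 5 over the Ctrl libraries, and Ptprc had 3 and 15. Cd68, a lysosomal glycoprotein gene, was called higher in YAP5SA (log2 fold change 1.63, SE 0.21, edgeR adjusted p = 1.39e-05). It made up most of a sum of 31.7 to 42.7 CPM in YAP5SA and 8.29 to 17.8 CPM in Ctrl. The part of these markers in the results was not tested. Sex-linked transcripts parted the groups fully. Xist had 14 counts over the YAP5SA libraries and 39949 over the Ctrl libraries, and Ddx3y had 9816 in YAP5SA and 0 in Ctrl. Genotype and sex cannot be told apart in any value that follows, and in bulk RNA neither can fewer cells of a type and less RNA per cell.

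Of the 112 members, 107 had enough counts to be tested. They were called about as often as all genes, but their changes were smaller. At an edgeR adjusted p under 0.05, 28 were higher and 46 lower in YAP5SA, which is 26.2% and 43.0% of those tested, where 33.1% and 31.3% of all 13812 genes tested were higher and lower. Called in either direction were 69.2% of the members and 64.5% of all genes. With libraries scaled by their total count alone, a setting that shifts the median log2 fold change of all genes to 0.19 from 0.02, the split was 35 higher and 29 lower, against 41.6% and 23.2% of all genes. The excess of lower over higher calls among the members thus depends on the scaling. In both settings a smaller share of the members than of all genes was called higher, and a larger share lower. Changes were modest. A change of more than 2-fold was called for 11 members, 3 higher and 8 lower, or 10.3% of those tested against 25.5% of all genes. Of the 3 higher ones 2, Hdac6 and Smarca1, are encoded on the X chromosome. The median log2 fold change was -0.13 for the members and 0.02 for all genes, the extremes among members were -1.48 and 1.28, and no member reached an absolute value of 2, as 9.87% of all genes did. The YAP5SA and Ctrl libraries did not overlap for 67 members, 62.6% of those tested, where the share of all genes was 58.7%.

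**Figure D1:**
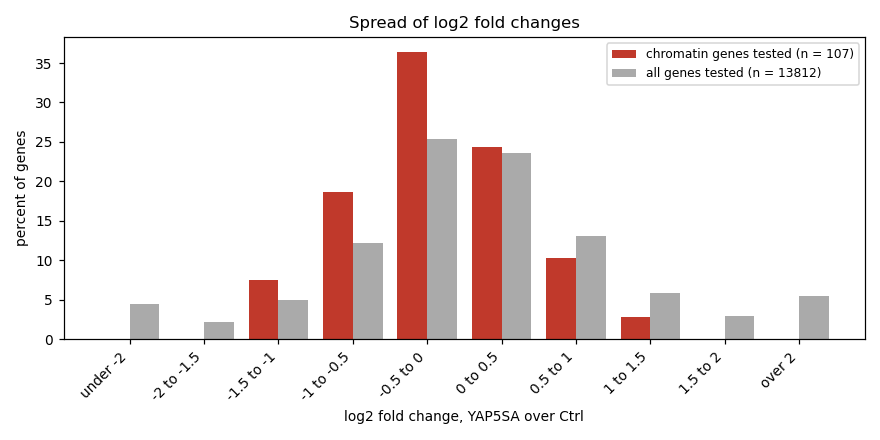
Percent of genes (vertical axis) in bins of log2 fold change, YAP5SA over Ctrl (horizontal axis), for the 107 chromatin genes tested (red) and all 13812 genes tested (grey). The chromatin genes lie between -1.48 and 1.28, and 60.7% of them are within 0.5 of 0 against 48.9% of all genes.

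**Figure D2:**
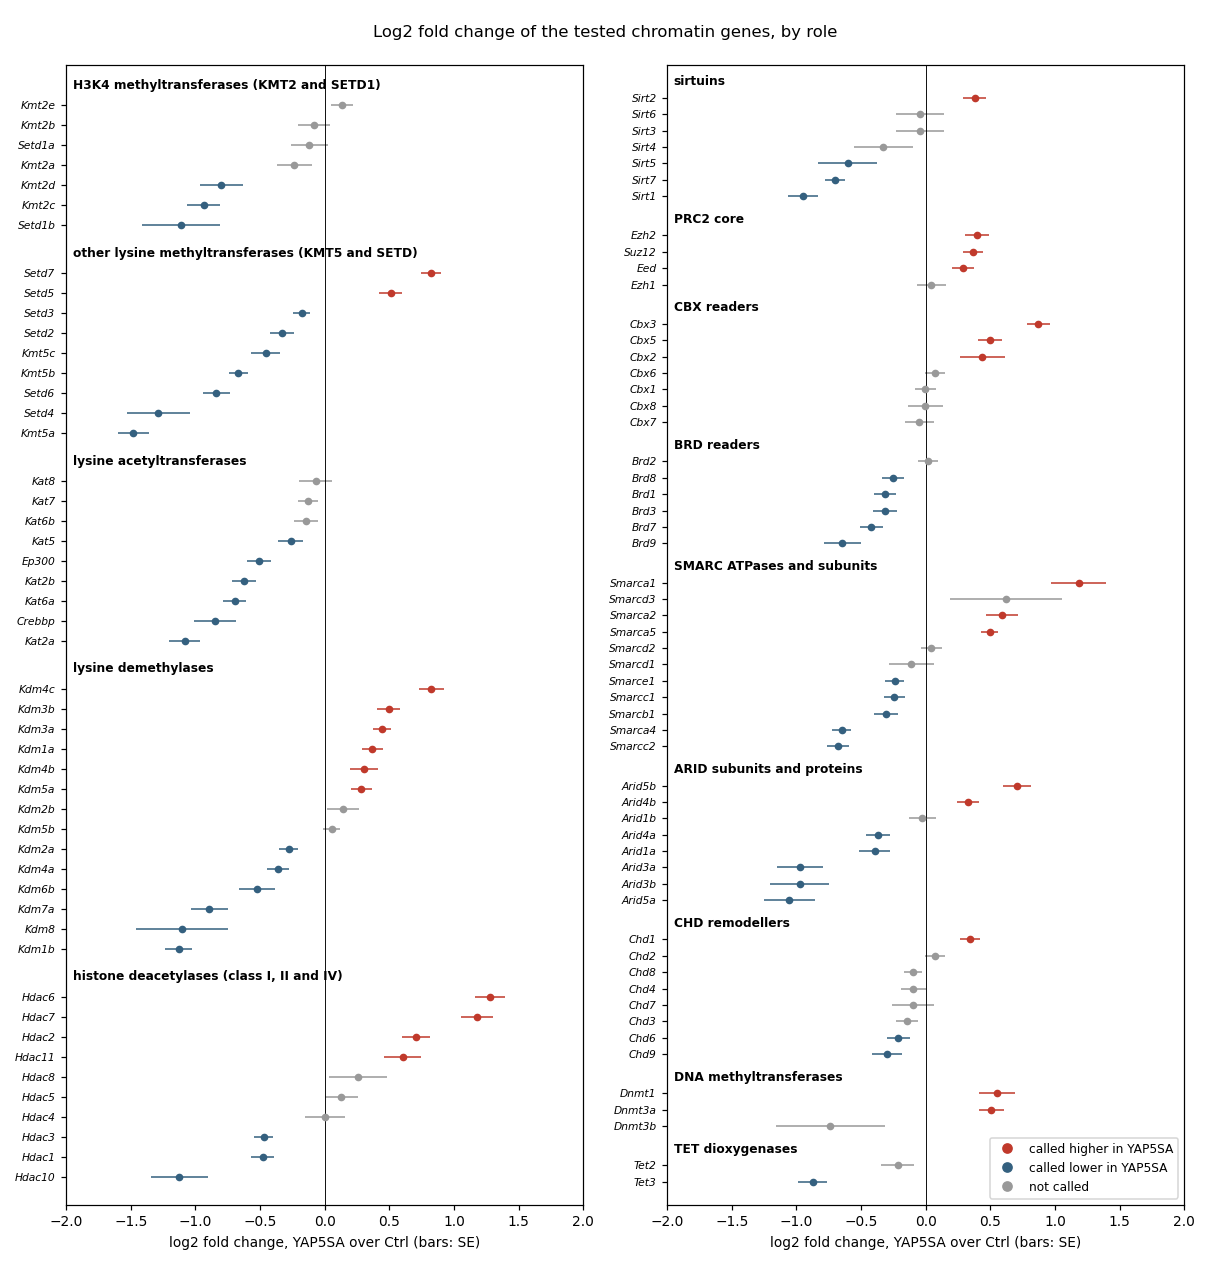
Log2 fold change of the tested chromatin genes that are reported here, YAP5SA over Ctrl (horizontal axis, points), with its standard error (bars), sorted within 14 role groups. Red points were called higher in YAP5SA, blue points lower, and grey points were not called. The acetyltransferases, BRD readers, H3K4 methyltransferases and TET dioxygenases have only lower calls. The PRC2 core, CBX readers and DNA methyltransferases have only higher ones.

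The methyltransferases that modify histone H3 at lysine K4 held 3 called members of 7, each lower in YAP5SA. Beside the counts of calls by role group, here and below, stand 33.1% higher and 31.3% lower calls over all genes tested. No role group was tested as a set. Values per library, here and below, are in the order of replicates 1 to 4. Kmt2c, which with Kmt2d marks enhancers, had 18.4, 16.4, 24.4 and 18.8 CPM in the YAP5SA libraries, against 31.2, 42.6, 36.2 and 39.2 CPM in the Ctrl libraries (log2 fold change -0.94, SE 0.13, edgeR adjusted p = 2.21e-05). Its partner Kmt2d had 13.5, 12, 14 and 13.4 CPM in YAP5SA and 17.9, 27, 17.4 and 30 CPM in Ctrl (log2 fold change -0.80, SE 0.17, edgeR adjusted p = 0.000767). For both genes the groups did not overlap, and the Ctrl spread of Kmt2d was wide, with replicates 2 and 4 above replicates 1 and 3. Setd1b, a catalytic subunit of the SET1 complexes that place trimethylation at promoters, had 3.50, 3.02, 4.37 and 7.62 CPM in YAP5SA and 7.67, 8.29, 7.92 and 16.4 CPM in Ctrl (log2 fold change -1.11, SE 0.30, edgeR adjusted p = 0.00531). Replicate 4 was the highest library of each group for Setd1b. The promoter-directed enzymes Kmt2a, Kmt2b and Setd1a were at -0.24, -0.08 and -0.12, and Kmt2e, a reader with an inactive SET domain, was at 0.13, none of them called. Kmt2a was called in edgeR without Ctrl replicate 3, at -0.35, adjusted p = 0.0380.

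Every tested gene of the other methyltransferase families was called, 7 lower and 2 higher of 9, where 64.5% of all genes tested were called. With library size scaling 4 were lower. Kmt5a, the enzyme that monomethylates histone H4 at lysine K20, showed the steepest fall of all 107 tested members, with 125, 115, 131 and 169 CPM in the YAP5SA libraries, against 332, 356, 371 and 448 CPM in the Ctrl libraries (log2 fold change -1.48, SE 0.12, edgeR adjusted p = 1.13e-07). The highest YAP5SA library lay below the lowest Ctrl library by a wide margin. Kmt5b and Kmt5c, which add further methyl groups to the same residue, were also lower, at -0.67 (SE 0.08) and -0.46 (SE 0.11), so that all 3 KMT5 genes fell, Kmt5c not with library size scaling. Setd4 was lower with few reads, at 1.23, 1.56, 1.33 and 1.51 CPM in YAP5SA and 2.37, 3.91, 3.46 and 4.02 CPM in Ctrl (log2 fold change -1.29, SE 0.24, edgeR adjusted p = 0.000356). Setd6, a methyltransferase of the NF-kappaB subunit RelA, had 11.7, 10.1, 11.6 and 10.9 CPM in YAP5SA and 19.7, 19, 20.1 and 20.4 CPM in Ctrl (log2 fold change -0.84, SE 0.10, edgeR adjusted p = 6.70e-06). The libraries within each group were close for Setd6, and the groups were far apart. Setd2, the H3K36 trimethylase, was at -0.33 (SE 0.09). Setd3, a histidine methyltransferase of actin, was at -0.18 (SE 0.06, edgeR adjusted p = 0.0243) and lost its call without YAP5SA replicate 1 (-0.18, adjusted p = 0.0566) or 3 (-0.16, adjusted p = 0.0606) or Ctrl replicate 3 (-0.18, adjusted p = 0.0549).

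Setd7 and Setd5 went the other way. Setd7, a monomethylase with many non-histone substrates of which YAP is one, had 78.1, 73.7, 76.8 and 76.6 CPM in the YAP5SA libraries, against 47.6, 39.3, 42.5 and 43 CPM in the Ctrl libraries (log2 fold change 0.82, SE 0.08, edgeR adjusted p = 4.64e-07). Setd5, a SET-domain protein found with the HDAC3 corepressor, had 109, 111, 107 and 94.9 CPM in YAP5SA and 63.6, 80.5, 73.1 and 79.5 CPM in Ctrl (log2 fold change 0.51, SE 0.09, edgeR adjusted p = 0.000158). In both cases all YAP5SA libraries were above all Ctrl libraries.

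Acetyltransferases were lower or not called: 6 of 9 fell and 0 rose, beside 31.3% lower and 33.1% higher of all genes tested. Their median log2 fold change of -0.51 stayed below 0 under each scaling tried (-0.33 with library size alone). Kat2a (GCN5), the catalytic subunit of the SAGA and ATAC coactivators, had 12.3, 9.05, 10.7 and 9.99 CPM in the YAP5SA libraries, against 24.3, 20.1, 21 and 23.7 CPM in the Ctrl libraries (log2 fold change -1.08, SE 0.12, edgeR adjusted p = 2.77e-06). Its paralogue Kat2b (PCAF) was at -0.62 (SE 0.09). Crebbp (CBP), which with p300 acetylates H3K27 at enhancers, had 8.45, 5.72, 8.95 and 7.75 CPM in YAP5SA and 13.4, 15.6, 11.2 and 15.5 CPM in Ctrl (log2 fold change -0.85, SE 0.16, edgeR adjusted p = 0.000374). Ep300 had 32.7, 28.2, 36.9 and 33.4 CPM in YAP5SA and 44.7, 50.2, 44.2 and 47.8 CPM in Ctrl (log2 fold change -0.51, SE 0.09, edgeR adjusted p = 0.000283). Kat6a (MOZ), an H3 acetyltransferase, had 41.6, 38.1, 47.7 and 42.2 CPM in YAP5SA and 64.1, 72.3, 64.3 and 74.1 CPM in Ctrl (log2 fold change -0.69, SE 0.09, edgeR adjusted p = 9.99e-06). For these 5 genes no YAP5SA library reached the lowest Ctrl library. Kat5 (TIP60) was at -0.26 (SE 0.10, edgeR adjusted p = 0.0280) and lost its call without YAP5SA replicate 2 (-0.24, adjusted p = 0.0722) or 3 (-0.23, adjusted p = 0.0776). Kat6b, Kat7 and Kat8 were at -0.14, -0.13 and -0.07, not called. Kat7 (HBO1) was called in edgeR without Ctrl replicate 1, at -0.19, adjusted p = 0.0359.

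**Figure D3:**
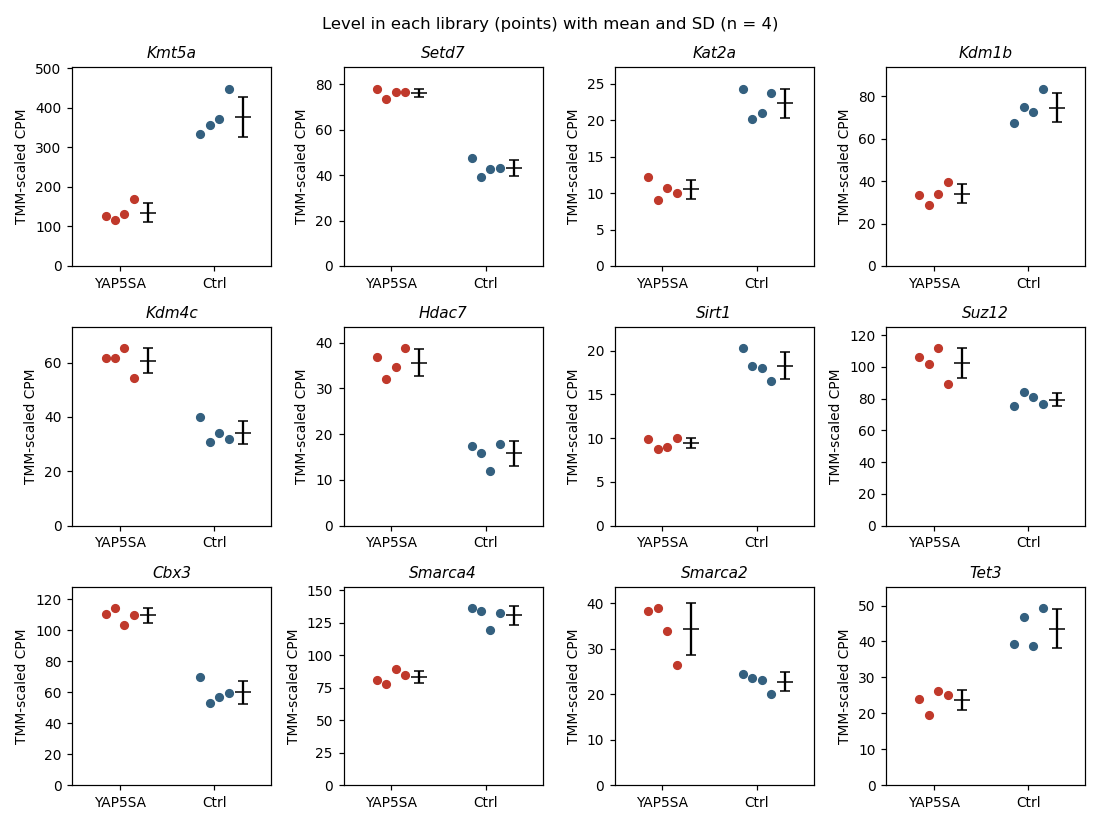
TMM-scaled CPM (vertical axes) of 12 chromatin genes in each YAP5SA library (red) and Ctrl library (blue), with the group mean and SD in black (n = 4). In each panel the groups do not overlap; Kmt5a lies between 115 and 169 CPM in YAP5SA and between 332 and 448 CPM in Ctrl, and Setd7, Kdm4c, Hdac7, Suz12, Cbx3 and Smarca2 are the panels in which YAP5SA is higher.

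Lysine demethylases split evenly, with 6 of 14 tested genes higher and 6 lower (8 and 4 with library size scaling). The split crosses subfamilies that share a substrate. Kdm1b (LSD2), a flavin-dependent H3K4 demethylase, had 33.6, 28.8, 34.1 and 39.7 CPM in the YAP5SA libraries, against 67.2, 74.9, 72.6 and 83.6 CPM in the Ctrl libraries (log2 fold change -1.13, SE 0.10, edgeR adjusted p = 3.32e-07). Kdm1a (LSD1), the enzyme of the CoREST complex with the same chemistry, had 71.8, 67.8, 66 and 75.1 CPM in YAP5SA and 60.9, 52.5, 49.2 and 55 CPM in Ctrl (log2 fold change 0.37, SE 0.08, edgeR adjusted p = 0.00142). Kdm1b was thus lower and Kdm1a higher in every YAP5SA library than in any Ctrl library. In the KDM4 group, which acts on H3K9 and H3K36, Kdm4c had 61.7, 61.5, 65.3 and 54.5 CPM in YAP5SA and 40.2, 30.7, 34.2 and 31.8 CPM in Ctrl (log2 fold change 0.83, SE 0.10, edgeR adjusted p = 4.57e-06). Kdm4a had 54.4, 44.8, 54.2 and 47.3 CPM in YAP5SA and 68.6, 58.8, 66.4 and 64.1 CPM in Ctrl (log2 fold change -0.36, SE 0.09, edgeR adjusted p = 0.00229). Kdm4b was at 0.30 (SE 0.11, edgeR adjusted p = 0.0252), a call that ended when YAP5SA replicate 1 or 3 or any 1 Ctrl library was left out, with adjusted p between 0.0520 and 0.0987.

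The H3K9 demethylases Kdm3a and Kdm3b both rose. Kdm3a, a gene induced by hypoxia in many cells, had 116, 108, 105 and 107 CPM in YAP5SA and 78.3, 83.9, 78.9 and 78.5 CPM in Ctrl (log2 fold change 0.44, SE 0.07, edgeR adjusted p = 5.35e-05). Kdm3b had 89.9, 89.6, 91.1 and 84.2 CPM in YAP5SA and 55.8, 60.1, 62.6 and 73.4 CPM in Ctrl (log2 fold change 0.49, SE 0.09, edgeR adjusted p = 0.000178). For both, the groups did not overlap. Kdm7a, a demethylase of H3K9 and H3K27, had 49.4, 51.9, 68 and 38.9 CPM in the YAP5SA libraries, against 83.1, 109.9, 106 and 87.1 CPM in the Ctrl libraries (log2 fold change -0.89, SE 0.14, edgeR adjusted p = 8.94e-05). The H3K27 demethylase Kdm6b (JMJD3) had 13.8, 10.7, 14.1 and 14.2 CPM in YAP5SA and 16.6, 17.5, 17.6 and 24.4 CPM in Ctrl (log2 fold change -0.52, SE 0.14, edgeR adjusted p = 0.00534). YAP5SA replicate 2 was low and Ctrl replicate 4 high for Kdm6b, and the other 3 libraries of each group lay close together. Kdm5a, an H3K4 demethylase, was at 0.28 (SE 0.08), while its paralogue Kdm5b was at 0.05 and not called. Among H3K36 demethylases Kdm2a was at -0.28 (SE 0.07) and Kdm2b at 0.14, not called. Kdm8, at 1.11 ± 0.400 CPM in YAP5SA and 2.42 ± 0.869 CPM in Ctrl, was called lower (log2 fold change -1.10, SE 0.35, edgeR adjusted p = 0.0141) although its groups overlapped. Kdm4d was not tested, with 20 counts over the YAP5SA libraries and 13 over the Ctrl libraries.

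Of 10 histone deacetylases tested, 4 rose and 3 fell, while the summed level of the family was 426 to 449 CPM in YAP5SA and 368 to 433 CPM in Ctrl, with overlapping ranges. Hdac1 and Hdac2 are the interchangeable catalytic subunits of the NuRD, SIN3 and CoREST corepressors. Hdac2 had 152, 169, 140.3 and 149.8 CPM in the YAP5SA libraries, against 117, 81.1, 85.3 and 91.2 CPM in the Ctrl libraries (log2 fold change 0.71, SE 0.11, edgeR adjusted p = 5.42e-05). Hdac1 had 79.2, 83.5, 87.7 and 88.8 CPM in YAP5SA and 121, 128, 126 and 98.2 CPM in Ctrl (log2 fold change -0.48, SE 0.09, edgeR adjusted p = 0.000285). Hdac3, the catalytic subunit of the NCoR and SMRT corepressors, had 75.8, 77.9, 81.1 and 74.6 CPM in YAP5SA and 117, 104, 108 and 99.2 CPM in Ctrl (log2 fold change -0.47, SE 0.07, edgeR adjusted p = 6.10e-05). Hdac1 and Hdac3 were below, and Hdac2 above, the Ctrl libraries in all 4 YAP5SA libraries. Hdac8, the remaining class I enzyme, was at 0.25, not called.

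Among class II enzymes, Hdac6 showed the largest rise of the 107 tested members. This cytoplasmic deacetylase of tubulin, encoded on the X chromosome, had 16.7, 16.8, 17.1 and 18.7 CPM in the YAP5SA libraries, against 7.79, 7.05, 7.13 and 6.48 CPM in the Ctrl libraries (log2 fold change 1.28, SE 0.12, edgeR adjusted p = 3.23e-07). Hdac7, a signal-responsive class IIa enzyme, had 37, 32.1, 34.7 and 38.8 CPM in YAP5SA and 17.4, 15.9, 11.9 and 17.9 CPM in Ctrl (log2 fold change 1.18, SE 0.13, edgeR adjusted p = 1.85e-06). Every YAP5SA library of these genes exceeded every Ctrl library by a wide margin. Hdac10, a polyamine deacetylase, fell, with 3, 2.91, 2.77 and 2.05 CPM in YAP5SA and 4.46, 6.10, 7.80 and 4.97 CPM in Ctrl (log2 fold change -1.13, SE 0.22, edgeR adjusted p = 0.000466). The class IIa genes Hdac4 and Hdac5 were at 0.00 and 0.13, not called, and Hdac9 was not tested, with 7 counts in YAP5SA and 9 in Ctrl. Hdac11, the only class IV enzyme, was at 0.60 (SE 0.14).

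Sirtuins are deacylases that depend on NAD. Of the 7 tested, 3 fell, Sirt2 rose and 3 were not called (Sirt5 also not with library size scaling). Sirt1, a nuclear deacetylase of histones and p53, had 9.95, 8.79, 9.01 and 9.99 CPM in the YAP5SA libraries, against 20.3, 18.2, 18 and 16.5 CPM in the Ctrl libraries (log2 fold change -0.95, SE 0.11, edgeR adjusted p = 5.28e-06). The nucleolar Sirt7 had 29.6, 30.2, 28.7 and 28.3 CPM in YAP5SA and 45.8, 47.6, 50.2 and 46.8 CPM in Ctrl (log2 fold change -0.70, SE 0.08, edgeR adjusted p = 2.24e-06). Sirt2, a mainly cytoplasmic deacetylase of tubulin, rose, with 36.3, 37.3, 37.2 and 34.7 CPM in YAP5SA and 28.7, 28, 30.6 and 24.5 CPM in Ctrl (log2 fold change 0.38, SE 0.09, edgeR adjusted p = 0.00198). In each of these genes the groups were fully separate and the libraries of a group lay close together. Sirt5, a mitochondrial desuccinylase, was low in reads, with 3.72, 3.02, 3.14 and 1.78 CPM in YAP5SA and 4.34, 3.79, 4.80 and 4.75 CPM in Ctrl (log2 fold change -0.60, SE 0.23, edgeR adjusted p = 0.0327). Its edgeR call ended without YAP5SA replicate 2 (-0.62, adjusted p = 0.0562) or 4 (-0.43, adjusted p = 0.0721) or Ctrl replicate 3 (-0.58, adjusted p = 0.0706) or 4 (-0.59, adjusted p = 0.0554). The mitochondrial Sirt3 and Sirt4 and the chromatin-bound Sirt6 were at -0.05, -0.33 and -0.04, not called.

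PRC2 methylates H3K27, and 3 of its 4 core genes were modestly higher. Suz12, its scaffold, had 106, 102, 112 and 89.4 CPM in the YAP5SA libraries, against 75.4, 84.3, 81.3 and 76.6 CPM in the Ctrl libraries (log2 fold change 0.37, SE 0.08, edgeR adjusted p = 0.00125). Ezh2, the catalytic subunit of dividing cells, had 43.8, 38.5, 38.6 and 36.4 CPM in YAP5SA and 31, 29.4, 31.8 and 27.1 CPM in Ctrl (log2 fold change 0.40, SE 0.09, edgeR adjusted p = 0.00155). Eed, the subunit that binds the finished mark, had 51.7, 49.2, 42.5 and 45 CPM in YAP5SA and 37.7, 37.1, 41.2 and 38.1 CPM in Ctrl (log2 fold change 0.29, SE 0.09, edgeR adjusted p = 0.00866). These 3 genes were higher in each YAP5SA library than in any Ctrl library. Ezh1, the alternative catalytic subunit found in resting cells, was at 0.04 (edgeR adjusted p = 0.736) and was not called. Markers of S phase and mitosis moved in the same direction: 8 of 12 rose, 0 fell and 4 were not called, where 33.1% of all genes tested rose. The summed level of these markers was 391 to 448 CPM in the YAP5SA libraries and 240.1 to 336 CPM in the Ctrl libraries. Their part in the PRC2 and DNA methyltransferase values was not tested.

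CBX proteins read methylated lysines through a chromodomain, and those described here were higher or not called. In the heterochromatin (HP1) branch, Cbx3 (HP1 gamma) had 111, 114, 103 and 109 CPM in the YAP5SA libraries, against 70, 52.8, 57 and 59.5 CPM in the Ctrl libraries (log2 fold change 0.87, SE 0.09, edgeR adjusted p = 9.78e-07). Cbx5 (HP1 alpha) had 209, 203, 196 and 153 CPM in YAP5SA and 140.2, 136, 140.1 and 123 CPM in Ctrl (log2 fold change 0.50, SE 0.10, edgeR adjusted p = 0.000402). Cbx1 (HP1 beta) was at 0.00, not called. Every YAP5SA library exceeded every Ctrl library for both called genes. Of the Polycomb branch, Cbx2 was at 0.44 (SE 0.18, edgeR adjusted p = 0.0406) with 5.58 ± 0.693 CPM in YAP5SA and 4.13 ± 0.547 CPM in Ctrl (SD, n = 4 each), and its call ended when any library other than YAP5SA replicate 2 or Ctrl replicate 4 was left out (adjusted p between 0.0658 and 0.136). Cbx6, Cbx7 and Cbx8 were at 0.07, -0.05 and 0.00, not called.

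BRD proteins read acetylated lysines through bromodomains, and 5 were lower, or 2 with library size scaling. Brd9, which defines the noncanonical BAF complex, had 13.9, 10.9, 12.8 and 16.3 CPM in the YAP5SA libraries, against 18.9, 18, 23.5 and 24.1 CPM in the Ctrl libraries (log2 fold change -0.64, SE 0.14, edgeR adjusted p = 0.00112). Brd7, a subunit of the PBAF complex, had 40.5, 40.4, 41.1 and 32.6 CPM in YAP5SA and 53.4, 49.3, 50.7 and 53.6 CPM in Ctrl (log2 fold change -0.42, SE 0.09, edgeR adjusted p = 0.000871). The BET protein gene Brd3 had 39, 34.3, 44.9 and 41.8 CPM in YAP5SA and 51.3, 49, 45.6 and 53.3 CPM in Ctrl (log2 fold change -0.32, SE 0.09, edgeR adjusted p = 0.00915). No YAP5SA library of the 3 genes reached the lowest Ctrl library. Another BET gene, Brd2, was at 0.02 and was not called. Brd1 and Brd8, subunits of acetyltransferase complexes, were at -0.32 (SE 0.08) and -0.25 (SE 0.08).

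Of 11 SMARC genes 3 rose and 5 fell, or 4 and 2 with library size scaling, and the alternative SWI/SNF ATPases moved in opposite directions. Smarca4 (BRG1) and Smarca2 (BRM) are alternative motors of the BAF complexes. Smarca4 had 81.2, 77.6, 89.2 and 84.9 CPM in the YAP5SA libraries, against 136, 134, 119 and 132 CPM in the Ctrl libraries (log2 fold change -0.65, SE 0.07, edgeR adjusted p = 3.34e-06). Smarca2 had 38.2, 39, 33.9 and 26.4 CPM in YAP5SA and 24.5, 23.6, 23.1 and 19.9 CPM in Ctrl (log2 fold change 0.59, SE 0.12, edgeR adjusted p = 0.000779). Each YAP5SA library was below the Ctrl range for Smarca4 and above it for Smarca2, with replicate 4 the lowest for Smarca2 in both groups. Smarcc2 (BAF170), a scaffold subunit, had 55.3, 52.3, 61.8 and 51.9 CPM in YAP5SA and 81.4, 93.5, 83.4 and 95.5 CPM in Ctrl (log2 fold change -0.68, SE 0.08, edgeR adjusted p = 8.13e-06). The core subunit gene Smarcb1 had 22.3, 21.2, 25.6 and 23.4 CPM in YAP5SA and 30, 27.1, 27.2 and 30.1 CPM in Ctrl (log2 fold change -0.31, SE 0.09, edgeR adjusted p = 0.0109). Smaller falls were called for the scaffold gene Smarcc1 at -0.24 (SE 0.08, edgeR adjusted p = 0.0212; -0.22, adjusted p = 0.0667 without YAP5SA replicate 1) and for Smarce1 at -0.24 (SE 0.07). With library size scaling the falls of Smarcb1, Smarcc1 and Smarce1 were no longer called. Smarcd1, Smarcd2 and Smarcd3 were at -0.11, 0.04 and 0.62, not called. The opposite-strand gene Chpf2 shares 48.2% of the exon length of Smarcd3, which had 128 counts over the 8 libraries.

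The ISWI motors were both higher. Smarca5 (SNF2H), the more abundant, had 198, 189, 195 and 181 CPM in the YAP5SA libraries, against 142, 129, 136 and 134 CPM in the Ctrl libraries (log2 fold change 0.50, SE 0.07, edgeR adjusted p = 1.64e-05). Smarca1 (SNF2L), encoded on the X chromosome, had 13.8, 13.9, 11.7 and 11.2 CPM in YAP5SA and 8.29, 4.80, 5.75 and 3.41 CPM in Ctrl (log2 fold change 1.18, SE 0.21, edgeR adjusted p = 0.000242), and Ctrl replicate 1 was the highest of its group. Beside Hdac6 and Hdac8, Smarca1 is the third X-linked member. Hdac6 and Smarca1 were lower in Ctrl, and Hdac8 was not called (log2 fold change 0.25). Ctrl is the group with Xist reads, and the part of sex in these values was not tested.

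Of the 8 ARID genes 5 fell (3 with library size scaling), Arid4b and Arid5b rose and Arid1b was not called. Arid1a, the DNA-binding subunit of canonical BAF and a described inhibitor of YAP and TAZ, was at -0.40 (SE 0.12, edgeR adjusted p = 0.00903) with 30.6, 27.4, 33.4 and 38.5 CPM in YAP5SA and 43, 43.3, 35.9 and 48.9 CPM in Ctrl, and its groups overlapped. With library size scaling Arid1a was not called. Its alternative Arid1b was at -0.03, not called. Arid5a, an RNA-binding protein that stabilises cytokine transcripts, had 3.41, 3.33, 4.10 and 2.65 CPM in the YAP5SA libraries, against 6.26, 6.81, 6 and 8.94 CPM in the Ctrl libraries (log2 fold change -1.05, SE 0.19, edgeR adjusted p = 0.000290). Arid5b, a partner of the demethylase PHF2, had 32.2, 30.2, 31.7 and 38.4 CPM in YAP5SA and 22.7, 17.7, 19.4 and 21.3 CPM in Ctrl (log2 fold change 0.71, SE 0.11, edgeR adjusted p = 5.55e-05). Neither gene's groups overlapped, and the directions were opposite. Arid4a and Arid4b, both of the SIN3 corepressor, parted in the same way. Arid4a had 23.4, 24.2, 25.9 and 27.6 CPM in YAP5SA and 30.4, 33.4, 35.4 and 31.1 CPM in Ctrl (log2 fold change -0.37, SE 0.09, edgeR adjusted p = 0.00321). Arid4b had 87.3, 89.1, 84.1 and 72.2 CPM in YAP5SA and 71.4, 66.6, 67.5 and 60.3 CPM in Ctrl (log2 fold change 0.32, SE 0.08, edgeR adjusted p = 0.00404). Arid3a, a transcription factor, had 4.54, 4.11, 5.38 and 5.93 CPM in the YAP5SA libraries, against 8.41, 9.71, 8.38 and 12.8 CPM in the Ctrl libraries (log2 fold change -0.97, SE 0.18, edgeR adjusted p = 0.000317). Its paralogue Arid3b had 1.63, 2.03, 2.02 and 1.92 CPM in YAP5SA and 2.71, 4.56, 3.42 and 4.30 CPM in Ctrl (log2 fold change -0.98, SE 0.23, edgeR adjusted p = 0.00200), so that this pair fell together.

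CHD remodellers changed least among the groups with more than 4 members, with a median absolute log2 fold change of 0.12. Chd1, which binds H3K4 trimethylation, rose, with 85.5, 87, 99 and 81.6 CPM in the YAP5SA libraries, against 71.8, 70.4, 65.8 and 70.9 CPM in the Ctrl libraries (log2 fold change 0.34, SE 0.08, edgeR adjusted p = 0.00145). Chd9 had 21.9, 23.9, 23.1 and 31.2 CPM in YAP5SA and 27.8, 31.8, 30.2 and 33.7 CPM in Ctrl (log2 fold change -0.30, SE 0.12, edgeR adjusted p = 0.0363). Chd6 had 29, 29.4, 29.2 and 26.3 CPM in YAP5SA and 34.1, 32.9, 29.9 and 35 CPM in Ctrl (log2 fold change -0.21, SE 0.09, edgeR adjusted p = 0.0470). Both falls were marginal and not called under upper quartile or library size scaling. The Chd9 call ended without YAP5SA replicates 1, 2 or 3 or Ctrl replicates 2 or 4 (adjusted p between 0.0562 and 0.114), and that of Chd6 ended when any library other than Ctrl replicate 3 was left out (adjusted p between 0.0533 and 0.0929). The NuRD motors Chd3 and Chd4 were at -0.15 and -0.10, Chd2 at 0.07, Chd7 at -0.10 and Chd8 at -0.10, none called, and Chd3 was called in edgeR without Ctrl replicate 4 (-0.21, adjusted p = 0.0437). Chd5, a gene mainly of neurons and testis, was not tested, with 31 counts in YAP5SA and 14 in Ctrl.

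Among enzymes that add methyl groups to DNA, 2 of 3 tested genes were called higher. Among the TET enzymes that oxidise these groups, 1 of 2 tested genes was called lower. Dnmt1, which copies methylation after replication, had 40.4, 30.5, 36.7 and 26.3 CPM in the YAP5SA libraries, against 27.8, 23, 20.8 and 20 CPM in the Ctrl libraries (log2 fold change 0.55, SE 0.14, edgeR adjusted p = 0.00355). YAP5SA replicate 4 fell within the Ctrl range of Dnmt1, so its groups overlapped. The de novo methyltransferase Dnmt3a had 39.3, 41.3, 44 and 43.9 CPM in YAP5SA and 25.7, 33.7, 28.3 and 30.9 CPM in Ctrl (log2 fold change 0.51, SE 0.10, edgeR adjusted p = 0.000366). The YAP5SA libraries all exceeded the Ctrl libraries for Dnmt3a. Dnmt3b was barely present, at 0.569 ± 0.138 CPM in YAP5SA and 0.957 ± 0.512 CPM in Ctrl, and was not called (log2 fold change -0.74, SE 0.42). Dnmt3l, a cofactor of germ cells, had 0 counts in all 8 libraries, where 3 counts correspond to 0.125 to 0.178 CPM. Tet3 had 24.1, 19.6, 26.1 and 25.1 CPM in the YAP5SA libraries, against 39.3, 46.9, 38.7 and 49.3 CPM in the Ctrl libraries (log2 fold change -0.87, SE 0.11, edgeR adjusted p = 1.23e-05), with no overlap between the groups. Tet2 was at -0.22, not called, and Tet1 was not tested, with 35 counts over the YAP5SA libraries and 13 over the Ctrl libraries.

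Paralogues were then compared within each library, as ratios of CPM per kilobase of exon, for 38 listed pairs. In 16 pairs both genes were called, 9 in the same direction and 7 in opposite directions. Over all members 28 were called higher and 46 lower, so pairs of unrelated members would also often part. Whether paralogues part more or less often than unrelated members was not tested. The ratio of Smarca4 to Smarca2 was 4.68, 4.39, 5.79 and 7.09 in YAP5SA and 12.3, 12.5, 11.4 and 14.6 in Ctrl. That of Hdac1 to Hdac2 was 0.675, 0.641, 0.812 and 0.770 in YAP5SA and 1.33, 2.06, 1.91 and 1.40 in Ctrl, so that Hdac2 was the higher gene per length of exon in all 4 YAP5SA libraries and Hdac1 in all 4 Ctrl libraries. For Kdm1a over Kdm1b the ratio was 2.27, 2.50, 2.05 and 2.01 in YAP5SA and 0.960, 0.744, 0.719 and 0.698 in Ctrl. That of Kdm4a to Kdm4c was 0.888, 0.734, 0.837 and 0.873 in YAP5SA and 1.72, 1.92, 1.95 and 2.03 in Ctrl. Sirt1 stayed below Sirt2 in both groups, with ratios of 0.259, 0.223, 0.229 and 0.272 in YAP5SA and 0.667, 0.615, 0.557 and 0.635 in Ctrl. The Arid5a to Arid5b ratio was 0.0847, 0.0884, 0.104 and 0.0553 in YAP5SA and 0.222, 0.309, 0.248 and 0.336 in Ctrl, and that of Arid4a to Arid4b 0.809, 0.820, 0.930 and 1.16 in YAP5SA and 1.29, 1.52, 1.59 and 1.56 in Ctrl. The ratios are a description of these pairs, which were picked for their opposite calls. How far a ratio lies from 1 depends on the gene length used, while the ratio of YAP5SA to Ctrl does not. With the longest transcript in place of all exons, tried after the values were seen, the Kdm1a to Kdm1b ratio averaged 3.42 in YAP5SA and 1.21 in Ctrl, and the Arid4a to Arid4b ratio 0.361 in YAP5SA and 0.577 in Ctrl. The Smarca4 to Smarca2 ratio then averaged 2.31 in YAP5SA and 5.35 in Ctrl, and that of Hdac1 to Hdac2 0.890 in YAP5SA and 2.06 in Ctrl. The falls of Arid4a and Kdm4a were not called with library size scaling.

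**Figure D4:**
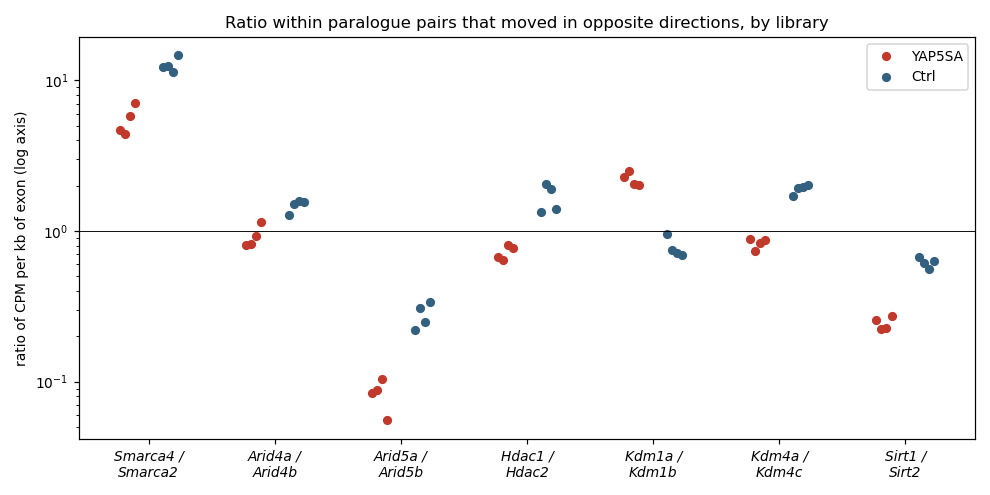
Ratio of CPM per kilobase of exon between the genes of 7 pairs (vertical axis, log scale) in each YAP5SA library (red) and Ctrl library (blue); the line marks a ratio of 1. No pair overlaps between the groups, and the Hdac1 to Hdac2 ratio lies between 0.641 and 0.812 in YAP5SA and between 1.33 and 2.06 in Ctrl.

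In YAP5SA the highest mean levels per kilobase of exon were those of Hdac2 (34.2 CPM per kb), Setd3 (29.3), Chd4 (29), Kmt5a (25.4), Hdac1 (24.6) and Smarca5 (24.5). In Ctrl Kmt5a led with 71 CPM per kb, followed by Hdac1 (34.3), Setd3 (33.2), Chd4 (31.1) and Hdac3 (26.5), with Hdac2 at 21. Neighbours did not differ beyond their SDs from Setd3 down to Smarca5 in YAP5SA (SDs of 0.839, 2.67, 4.41, 1.27 and 0.938 CPM per kb), or for Hdac1, Setd3 and Chd4 in Ctrl (3.98, 1.07 and 4.25). At the low end, Dnmt3b, Smarcd3 and Arid3b were under 0.5 CPM per kb in both groups among the tested genes. These levels rest on the union of annotated exons; with the longest transcript instead, the order changed. Setd3 (57.8 CPM per kb) and Kmt5a (49.3) then stood above Hdac2 (47), Hdac1 (41.6) and Chd4 (34.8) in YAP5SA, while Kmt5a still led in Ctrl at 138.

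**Figure D5:**
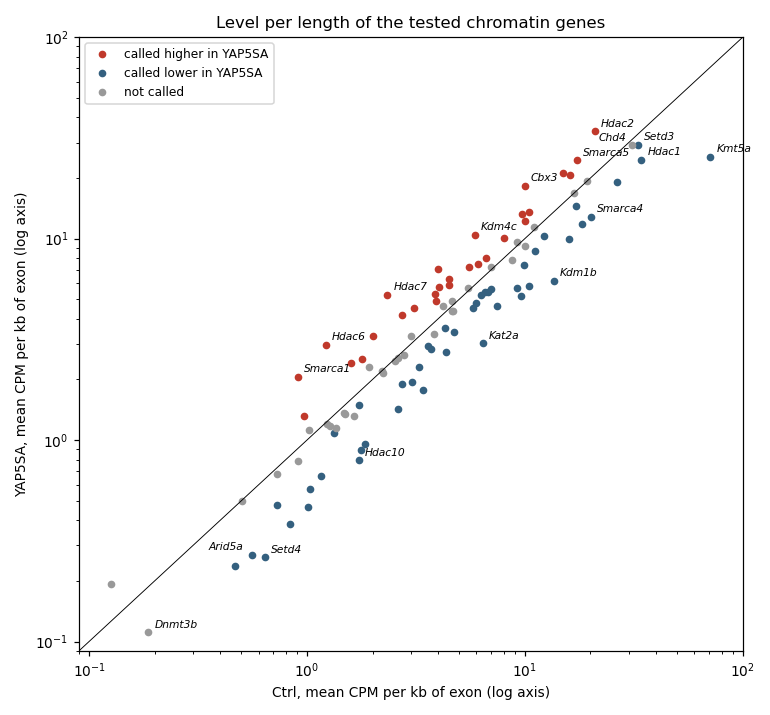
Mean level of the tested chromatin genes in YAP5SA (vertical axis) and in Ctrl (horizontal axis), in CPM per kilobase of exon on log scales; the line marks equal levels. Red genes were called higher and blue genes lower in YAP5SA, and Kmt5a, at 25.4 in YAP5SA and 71 in Ctrl, is the farthest below the line among the abundant genes.

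The summed length of all annotated exons and the log2 fold change were hardly correlated. The median exon length was 6.72 kb for higher members, 6.80 kb for lower ones and 8.02 kb for those not called, and Spearman's rho between length and log2 fold change was 0.06 over the 107 tested members, which share the same 8 libraries. Of the 112 members 13 have an annotated pseudogene copy of at least 500 bases with 90% identity or more, among them Cbx3, Hdac1, Smarca5 and Smarce1. Counts listed at such copies came to 30.3% of the 33 Kdm4d counts, 7.02% of Smarce1, 4.24% of Smarca5, 3.59% of Kdm2b, 3.20% of Hdac1, for which 1 of 3 copies was used here, and 1.39% or less of the others, and reads of these genes could have been split with them. Exons of Setd1a overlap those of Gm49388, which had 0 counts, by 51.8% of their length. In all, 39 members share exon bases with another gene of the count table, 2 of them (Setd1a and Smarcd3) over 20% or more. Kdm1b, with 8500 counts, shares 9.19% with the opposite-strand gene Dek, which had 18778. Kat5 shares 12.1% with Rnaseh2c, also on the opposite strand. How many reads fell in shared exons is not known.

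Upstream sequence was read for the 3 PRC2 genes that rose together and for the 2 SWI/SNF motors that parted, from RefSeq promoter windows on GRCm38.p6, of which 89 of the 112 members have one. The 250 bases before the annotated start are given 5′ to 3′ on the gene's strand, and capitals mark matches on either strand to GGAATG, the core of TEAD sites, or to TTTNNCGC, an E2F-type motif.
Suz12, chr11:79992856-79993105, plus strand: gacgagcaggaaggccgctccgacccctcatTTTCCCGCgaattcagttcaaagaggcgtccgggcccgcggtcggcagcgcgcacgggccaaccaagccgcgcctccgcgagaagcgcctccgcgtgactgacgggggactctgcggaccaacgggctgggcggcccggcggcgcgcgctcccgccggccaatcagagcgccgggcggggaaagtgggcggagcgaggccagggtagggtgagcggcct
Ezh2, chr6:47595031-47595280, minus strand: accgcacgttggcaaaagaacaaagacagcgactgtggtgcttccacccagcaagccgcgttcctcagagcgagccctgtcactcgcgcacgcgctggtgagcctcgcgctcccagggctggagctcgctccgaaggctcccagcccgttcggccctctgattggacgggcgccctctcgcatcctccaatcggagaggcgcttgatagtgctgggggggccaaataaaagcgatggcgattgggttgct
Eed, chr7:89980977-89981226, minus strand: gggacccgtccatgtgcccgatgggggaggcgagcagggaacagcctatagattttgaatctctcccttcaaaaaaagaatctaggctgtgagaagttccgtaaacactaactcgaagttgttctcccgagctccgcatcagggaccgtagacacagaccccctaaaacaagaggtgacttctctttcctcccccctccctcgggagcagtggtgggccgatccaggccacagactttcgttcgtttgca
Smarca4, chr9:21615919-21616168, plus strand: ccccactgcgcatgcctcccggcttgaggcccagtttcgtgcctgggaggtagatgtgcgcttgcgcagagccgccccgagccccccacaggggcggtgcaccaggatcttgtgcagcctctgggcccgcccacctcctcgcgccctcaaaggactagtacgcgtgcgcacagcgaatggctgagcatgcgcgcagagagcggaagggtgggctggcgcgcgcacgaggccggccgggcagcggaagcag
Smarca2, chr19:26604910-26605159, plus strand: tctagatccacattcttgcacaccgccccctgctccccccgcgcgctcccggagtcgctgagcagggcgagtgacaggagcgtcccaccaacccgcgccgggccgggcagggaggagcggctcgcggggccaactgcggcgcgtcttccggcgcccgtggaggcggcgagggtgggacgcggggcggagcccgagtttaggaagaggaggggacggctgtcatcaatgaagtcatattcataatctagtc
These windows hold 37, 23, 12, 25 and 28 CG dinucleotides in that order, where the median was 20 for the members and 16 for genes tested. The E2F-type motif is found once, in the Suz12 window, and GGAATG in none of the 5. Over all members with a window, 10.1% hold TTTNNCGC and 8.99% hold GGAATG, against 7.23% and 10.7% of the 10171 genes tested that have a window and 4.39% and 12.6% of all 27025 windows. GGAATG occurs in 1 of 22 windows of higher members, 4 of 35 of lower members and 3 of 27 of members not called. A match says only that these letters are there.

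Partner genes outside the families above were compared from 9 lists, 117 genes in all. Of 110 tested, 32 rose, 31 fell and 47 were not called, where 33.1% and 31.3% of all genes tested were higher and lower. Partners of the KMT2 enzymes were lower in 2 of 9 and higher in 0, other SWI/SNF subunits lower in 6 of 11 and higher in 2, and HDAC corepressor partners lower in 5 and higher in 5 of 18. For other PRC2 subunits 2 of 7 were higher and 1 lower, and for other PRC1 subunits 4 of 14 were higher and 6 lower. Other histone methyltransferases were higher in 7 of 22 and lower in 4, DNA methylation partners higher in 6 of 12 and lower in 3, other JmjC demethylases higher in 3 of 7 and lower in 2, and histone chaperones higher in 3 of 10 and lower in 2.

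Apart from the Y-linked Uty, the steepest changes on those lists were those of DNA methylation partners and Polycomb genes. Tdg, the glycosylase that removes cytosines oxidised by TET enzymes, was at 9.31 ± 1.02 CPM in YAP5SA and 38 ± 1.37 CPM in Ctrl (log2 fold change -2.03, SE 0.10, edgeR adjusted p = 7.96e-10). Gadd45b, a stress-induced gene with a described part in DNA demethylation, was at 157 ± 8.41 CPM in YAP5SA and 46 ± 6.43 CPM in Ctrl (log2 fold change 1.77, SE 0.10, edgeR adjusted p = 1.92e-09). Its relative Gadd45a was at 38.4 ± 6.65 CPM in YAP5SA and 12.5 ± 3.82 CPM in Ctrl (log2 fold change 1.61, SE 0.19, edgeR adjusted p = 5.12e-06). Uhrf1, which brings DNMT1 to newly replicated DNA, was at 7.92 ± 2.82 CPM in YAP5SA and 3.56 ± 0.808 CPM in Ctrl (log2 fold change 1.15, SE 0.27, edgeR adjusted p = 0.00168). Partners of the DNA-modifying enzymes thus differed in direction. Among Polycomb partners, Epop, which links PRC2 to elongin, was at 18.7 ± 4.96 CPM in YAP5SA and 52.3 ± 15.8 CPM in Ctrl (log2 fold change -1.48, SE 0.21, edgeR adjusted p = 2.62e-05). Bmi1, a PRC1 subunit, was at 37.9 ± 2.05 CPM in YAP5SA and 84 ± 4.96 CPM in Ctrl (log2 fold change -1.15, SE 0.08, edgeR adjusted p = 1.49e-08). Pcgf3, its counterpart in a variant PRC1, was at 78.9 ± 9.57 CPM in YAP5SA and 172 ± 17.8 CPM in Ctrl (log2 fold change -1.12, SE 0.10, edgeR adjusted p = 2.62e-07). Uty, a demethylase relative with 4252 counts in YAP5SA and 0 in Ctrl, is 1 of the higher JmjC genes.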

How the data were processed

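RNA was sequenced from 8 organoid cultures, 4 YAP5SA and 4 Ctrl; the sample titles give groups and replicate numbers. The table deposited by the authors holds raw counts of reads for each gene in each library, not normalized. Per the submitters' processing notes, reads were handled with cutadapt, HISAT2 2.0.1 and HTSeq 0.6.1 on the mm9 build. Annotation and strandedness were not given in the sources used here, so reads of overlapping genes on opposite strands cannot be told apart.

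The test was the two-sided quasi-likelihood F test of edgeR 4.0.16 (R 4.3.3), without covariates, on TMM-scaled counts (factors 1.04 to 1.08 in YAP5SA and 0.92 to 0.97 in Ctrl). The filterByExpr function, set to a minimum of 10 counts and 15 in total, left 13812 genes, and Benjamini-Hochberg adjustment ran over all of them, with a threshold of 0.05. The standard error is the absolute log2 fold change over the square root of F, and SDs are over 4 libraries. No pair of replicates was within sampling noise (chi-square per degree of freedom 4.97 to 37.9). A count of 3 in a library corresponds to 0.125 to 0.178 CPM after TMM scaling, a floor for counting error only. Exon lengths came from GENCODE M21 on GRCm38, a later build than the submitters', for 112 of 112 members, and promoter windows from RefSeq on GRCm38.p6.

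Members and lists were chosen with earlier results of these data known. Values per library are given in each role group for up to 3 higher and 3 lower called members of largest change (mean log2 CPM 1 or above), and for paralogue pairs of opposite direction; the partner genes named are the 4 highest and 4 lowest. Values per library of Arid1a and Ep300 were added after they were seen. The labels state no pairing by replicate number, and the main test used none. Deviations of same-numbered samples correlated at 0.07, 0.05, 0.09 and 0.28, the highest for replicate 4. These values were not set against those of differently numbered samples, so they cannot tell whether the numbers pair the samples. The alternatives were other scalings (RLE, upper quartile, library size), other tools (DESeq2 1.42.0 and limma-voom of limma 3.58.1), other filters (none, or 1 CPM in 4 libraries), a block for the replicate number, removal of genes above 1% of a library, and removal of each library in turn. The procedure was also run on simulated data in which few genes changed and the spread was fixed. The real libraries differ from that setting, so the run says nothing about the calls reported here. Some members and markers that enter the counts are not reported here by name.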

Additional observations from a re-analysis of the deposited data

Results flagged for a closer look

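In 13 of 214 sets of 4 libraries (107 tested members in each group), 1 library lay so far from the other 3 that Dixon's test marked it at the 95% level. Chance marks about 1 in 20 such sets. Ctrl replicate 4 was the library in 5 of them and YAP5SA replicate 4 in 4.

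In Ctrl replicate 4, Setd1b was at 16.4 CPM where the other Ctrl libraries had 7.67 to 8.29 CPM. The same library had 14.1 CPM of Kat8, beside 13.1 CPM or less, and 104 CPM of Kdm2a, against 91.4 to 92.8 CPM. Kdm6b was at 24.4 CPM there and at 16.6 to 17.6 CPM in the other Ctrl libraries, and Chd3 at 66.2 CPM beside 75.4 to 75.9 CPM. In YAP5SA replicate 4, Sirt4 was at 2.05 CPM where the other YAP5SA libraries had 3.50 to 3.54 CPM. Ezh1 was at 43.5 CPM in that library, against 56.8 to 58.0 CPM, Brd7 at 32.6 CPM, against 40.4 to 41.1 CPM, and Chd6 at 26.3 CPM, against 29.0 to 29.4 CPM. In YAP5SA replicate 2, Kdm6b was at 10.7 CPM beside 13.8 to 14.2 CPM.

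Ctrl replicate 1 had 28.7 CPM of Kdm4b, against 30.1 to 30.2 CPM in the other Ctrl libraries, and 123 CPM of Smarce1, beside 112 CPM or less. In Ctrl replicate 2, Kdm3a was at 83.9 CPM beside 78.3 to 78.9 CPM. Several of these gaps are small in CPM and were marked because the other 3 libraries lay close together. Of the genes concerned, Kdm4b, Chd3 and Chd6 change their call when the library marked here is left out.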

How the results depend on the processing

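The counts of 28 members higher and 46 lower stayed within 1.5 times under each alternative but library size scaling, where 29 were lower and 35 higher, 17 calls were lost and 7 gained. That setting moved the median log2 fold change of the members to 0.05, and turned the medians of the SMARC genes (0.07) and the CHD genes (0.08) above 0; the other role medians kept their sign. Upper quartile scaling gave 28 higher and 39 lower. The replicate number as a block gave 28 higher and 45 lower members, though the labels state no pairing by number. Leaving out each library in turn gave 26 to 28 higher and 42 to 46 lower members, and 4212 to 4533 higher and 4087 to 4439 lower genes of all tested. No member changed direction with a call under any alternative, and 55 of 74 called members kept their call in every alternative that tested them. Chd6 also lost its call under the block, limma-voom, upper quartile scaling, the 1 CPM filter and no filter. Depth limits the 5 members not tested, and Setd4, Kdm8, Dnmt3b and Arid3b rest on few reads.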
